A study of Mus musculus with 6 samples.

Results

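Prostaglandins and leukotrienes are eicosanoids, lipid signals made from arachidonic acid that a phospholipase A2 frees from membranes. Cyclooxygenases turn arachidonic acid into prostaglandin H2, terminal synthases turn that into prostaglandin E2, D2, prostacyclin or thromboxane, and lipoxygenases open the other branch, to leukotrienes and hydroxy acids. Prostaglandin E2 signals through the EP receptors and is inactivated by 15-hydroxyprostaglandin dehydrogenase, and in the colon it is known for its part in epithelial repair, mucosal blood flow and inflammation.

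The 10 genes described here, Ptgs2, Ptges, Ptgis, Ptgds, Hpgd, Ptger2, Ptger4, Pla2g4a, Alox5ap and Alox15, were chosen by name, as the rows of the deposited table whose Ensembl identifier maps to these symbols in GENCODE mouse. A row was found for 9 of the 10, among 20533 genes in all, and Ptgds, a prostaglandin D2 synthase, was not analysed here. All 9 passed the filter on low values, a mean value of at least 1.

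Male C57BL/6 mice of wild-type genotype, 7 weeks old, gave the distal colon RNA. They had received 2% dextran sulphate sodium together with montmorillonite powder (DSS plus montmorillonite), 2% DSS alone, or water, each for 7 days, and each group held 2 libraries. DSS damages the lining of the colon when drunk and serves as a model of colitis. Montmorillonite is a clay mineral used as an adsorbent in diarrhoea, at a dose that the labels leave out. No label ties a library to its own mouse, so p-values reflect only how far these libraries spread, and that spread may be technical.

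Values are normalised read counts, that is, read counts divided by 1 factor per library. The recovered reads summed to 6395768 and 4494666 in DSS plus montmorillonite, 21481594 and 15212981 in DSS, and 8936826 and 3741494 in water. A single read was worth between 0.335 (DSS replicate 1, the deepest) and 2.27 (water replicate 2, the shallowest). All 7 general epithelial markers (such as Epcam and Vil1) and all 7 colonocyte markers (such as Car4 and Aqp8) had reads in every library, as colon tissue should. The libraries of a group were not alike. The 7 neutrophil markers summed to 118 and 7264 in DSS plus montmorillonite, to 3270 and 7589 in DSS, and to 30.7 and 38.7 in water. The 8 markers of stratified squamous epithelium, a tissue of the anal canal, summed to 111 and 7093, to 160 and 39450, and to 21.1 and 455 in the same order. Replicate 2 of DSS and replicate 2 of DSS plus montmorillonite thus stood apart from their partners, and replicate 2 of water did so in the squamous markers. The calls on the 9 genes are also given without a library where that changes them.

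Colons given DSS differed from water colons at the inducible steps of prostaglandin E2 synthesis, at its catabolism, at the EP2 receptor and at the leukotriene activating protein. In the limma fit of the 2 DSS and 2 water libraries, 4 of the 9 genes rose (Ptgs2, Ptges, Ptger2 and Alox5ap), Hpgd fell, and Pla2g4a, Ptgis, Ptger4 and Alox15 did not pass at an adjusted p of 0.05. Over all 20287 genes tested the same fit called 15.2%, with 7.95% higher and 7.28% lower. That split depended on the scaling: higher genes were 52.2% of the calls with the deposited values and 71.3% when libraries were scaled by total reads, and no member's direction turned. In DSS plus montmorillonite against water and against DSS none of the 9 passed, nor did any gene at all (0% of 19785 and 0% of 20316 genes). At an unadjusted limma p below 0.05 there were 1499 and 1467 genes in these comparisons, and edgeR called 0 in both and DESeq2 200 and 76. The 5 calls depended on the fit: with all 6 libraries in 1 fit limma called 0% of 20307 genes in DSS against water, none of the 9 among them, although 23% of genes had an unadjusted p below 0.05.

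**Figure D1:**
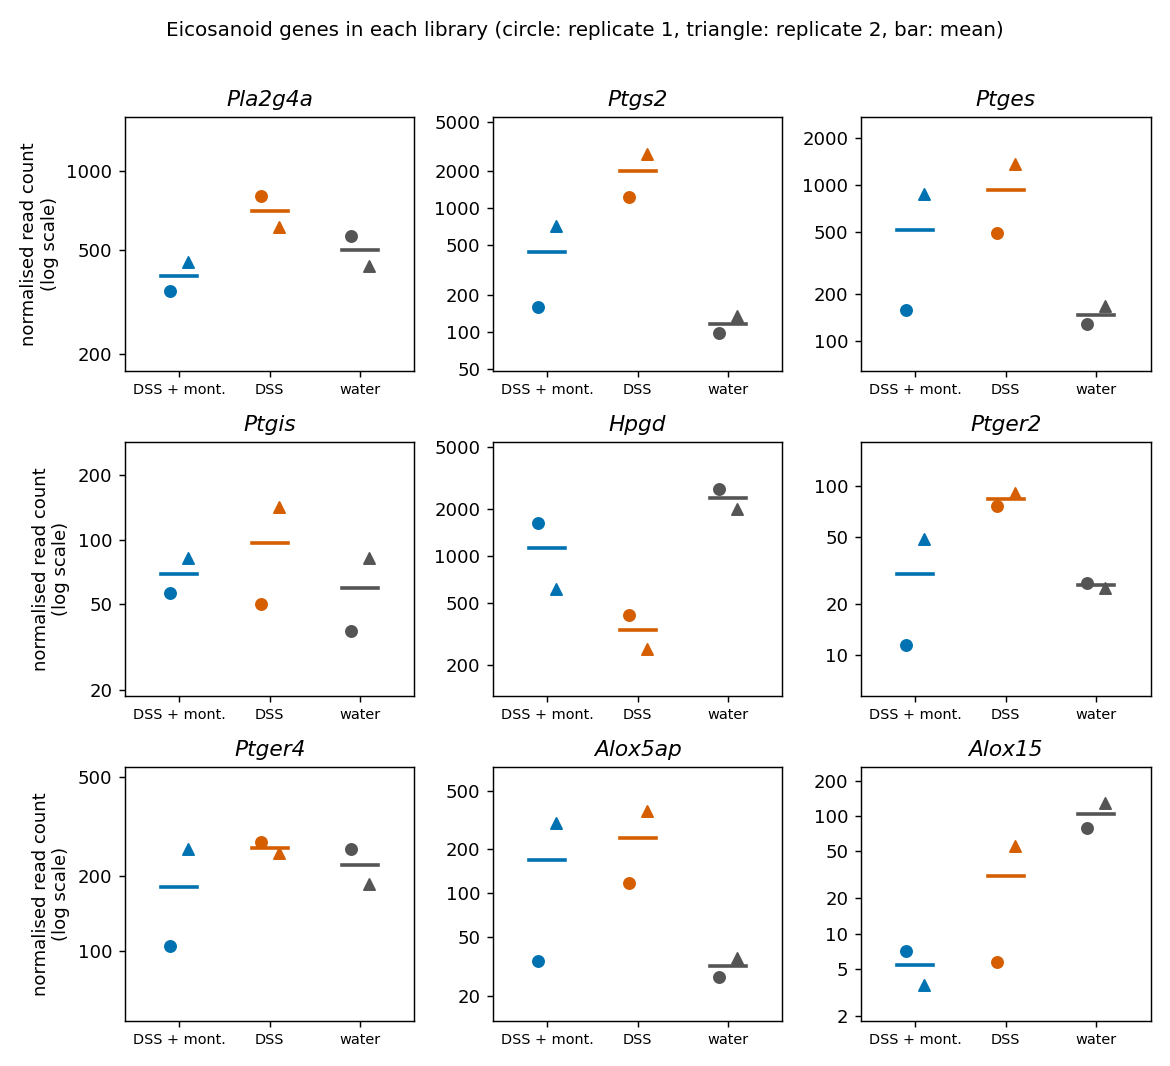
Normalised read count (log scale) of the 9 genes in each library of DSS plus montmorillonite (DSS + mont.), DSS and water, with circles for replicate 1, triangles for replicate 2 and bars for group means. Both DSS libraries lie above both water libraries for Ptgs2 (1241 and 2726 against 97.9 and 134) and below them for Hpgd (420 and 255 against 2674 and 2008), and the DSS plus montmorillonite libraries lie far apart for Alox5ap (34.5 and 303).

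Pla2g4a encodes cytosolic phospholipase A2 alpha, the calcium-activated enzyme that supplies arachidonic acid. It had 347 and 449 normalised reads in DSS plus montmorillonite, 801 and 609 in DSS, and 564 and 432 in water. The DSS libraries lay above the water libraries by a margin smaller than the spread within either group, and the log2 fold change was 0.50 with a 95% interval of -0.06 to 1.06 (limma adjusted p = 0.192). Pla2g4a (ENSMUSG00000056220.14, GRCm38 chr1:149829618-149961290, minus strand) and Ptgs2 (ENSMUSG00000032487.8, chr1:150100031-150108227, plus strand) are neighbours, 138740 bases apart, with the RNA gene Ptgs2os as the only gene with a row between them. Ptgs2 passed the test in DSS against water and Pla2g4a did not, and the difference between the 2 genes was not tested.

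Ptgs2, the inducible cyclooxygenase, was the gene of the 9 with the largest fold change in DSS against water. It had 158 and 721 normalised reads in DSS plus montmorillonite, 1241 and 2726 in DSS, and 97.9 and 134 in water. The lowest DSS library was thus above every library of the other groups. The log2 fold change in DSS against water was 3.99 ± 0.39 (SE, n = 2 each), or 15.9-fold, with a limma adjusted p of 0.00613. Pooled over libraries, 9390 reads in DSS stood against 161 in water, which is a ratio of 17.0. Its 95% interval began at 14.6 and ended at 20.04, and like the other intervals from pooled reads it covers counting error only. The call did not hold without DSS replicate 1 (adjusted p = 0.0742) or without DSS replicate 2 (0.122), where the fold change was 4.56 and 3.42 on the log2 scale. Since these are bulk samples, more cells that make a transcript and more transcript per cell cannot be told apart, for this gene and all others.

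Ptges, the microsomal prostaglandin E synthase that acts after Ptgs2, had 157 and 874 normalised reads in DSS plus montmorillonite, 494 and 1371 in DSS, and 129 and 166 in water. Both DSS libraries were above both water libraries, and replicate 2 of DSS plus montmorillonite lay between the DSS libraries. In DSS against water the log2 fold change was 2.49 ± 0.47 (SE, limma adjusted p = 0.0239). It was 3.22 without DSS replicate 1 and 1.75 without DSS replicate 2. This call was lost without any single library, with an adjusted p of 0.0742 without DSS replicate 1, 0.125 without DSS replicate 2, 0.109 without water replicate 1 and 0.0840 without water replicate 2. Ptgis, the prostacyclin synthase, had 56.1 and 81.8 normalised reads in DSS plus montmorillonite, 49.9 and 142 in DSS, and 37.4 and 81.9 in water. Its groups overlapped, the log2 difference between DSS and water was 0.60 with a 95% interval of -0.91 to 2.10, and the call was not passed (adjusted p = 0.544). Without DSS replicate 2 its difference turned to -0.15.

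The sequences before the starts of Ptgs2 and Ptges, which rose, and of Hpgd, which fell, are shown for comparison, as RefSeq gives them on GRCm38.p6. They cover the 250 bases before the RefSeq start on the gene's own strand, at chr1:150099781-150100030 (plus), chr2:30903298-30903547 (minus) and chr8:56294302-56294551 (plus). The GENCODE genes used for the counts start elsewhere for Ptges (chr2:30929863) and Hpgd (chr8:56294585). The Ptges stretch thus lies inside the GENCODE gene. Capitals mark matches to the 7 motifs searched.
Ptgs2: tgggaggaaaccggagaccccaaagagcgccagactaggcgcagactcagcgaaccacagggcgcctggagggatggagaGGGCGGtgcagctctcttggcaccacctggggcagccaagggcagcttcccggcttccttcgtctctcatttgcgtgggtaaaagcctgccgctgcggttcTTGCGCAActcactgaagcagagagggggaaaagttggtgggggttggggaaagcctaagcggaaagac
Ptges: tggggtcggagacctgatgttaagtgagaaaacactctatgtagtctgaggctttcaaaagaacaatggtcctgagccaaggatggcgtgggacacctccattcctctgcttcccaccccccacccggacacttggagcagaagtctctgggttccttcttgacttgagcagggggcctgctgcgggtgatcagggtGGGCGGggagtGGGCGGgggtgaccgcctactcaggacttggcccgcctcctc
Hpgd: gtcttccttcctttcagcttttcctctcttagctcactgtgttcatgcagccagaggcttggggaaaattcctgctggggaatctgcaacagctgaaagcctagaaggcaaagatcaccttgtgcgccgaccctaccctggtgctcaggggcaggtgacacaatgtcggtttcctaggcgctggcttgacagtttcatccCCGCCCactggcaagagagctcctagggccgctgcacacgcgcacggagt
A further match in Ptgs2 lies within the 50 bases after the annotated start, at chr1:150100035-150100058.
Ptgs2 site: tcaccactaCGTCACGTGgagtcc

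The motifs were searched on both strands in windows of 300 bases, 250 before the start and 50 from it on, and shares are of all 32851 such windows of mouse genes. The Ptgs2 window held TTGCGCAA, a palindrome of the C/EBP type that 0.183% of windows hold, 69 to 62 bases before the start. This is the longest exact word searched, so its share cannot be compared with those of the shorter motifs. The Ptgs2 window also held CGTCA, the core of the cyclic AMP response element (20.8% of windows), which shares 2 of its bases with CACGTG, an E-box (7.15%). GGGCGG, the GC box, occurred once in Ptgs2, at 2 places in Ptges and once in Hpgd, and 35.7% of windows hold it. TATAAA, the TATA box (13.6%), was found only in the Hpgd window of these 3, at bases 5 to 10 counted from the RefSeq start. The GENCODE start of Hpgd, chr8:56294585, lies further downstream, so the match lies before that start. TGANTCA, the AP-1 site (7.81%), and the NF-kB motif (8.46%) were found in none of the 3 windows, and sites outside the windows were not searched. A match describes letters in a window and no binding was measured. Of the 10 genes, 7 had a window in the table used, and Alox5ap, Alox15 and Ptgis had none. Among the other members with a window, Ptger2 held no match and Ptger4 held 4 GC boxes. Ptgds held 1 AP-1 and 1 NF-kB match, and Pla2g4a 1 TATA box in 1 of its windows.

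Hpgd (ENSMUSG00000031613.9, chr8:56294585-56321043, plus strand) encodes 15-hydroxyprostaglandin dehydrogenase, the enzyme that inactivates prostaglandin E2. It had 1622 and 611 normalised reads in DSS plus montmorillonite, 420 and 255 in DSS, and 2674 and 2008 in water. The 3 groups did not overlap: every DSS library was below every DSS plus montmorillonite library, and these were below both water libraries. Of all genes 62.5% did not overlap between DSS and water, 40% between DSS plus montmorillonite and DSS, and 41.6% between DSS plus montmorillonite and water. The share of genes with all 3 groups apart was not counted. In DSS against water the log2 fold change was -2.82 ± 0.29 (SE, n = 2 each), with a limma adjusted p of 0.00650. The adjusted p was 0.0744 without DSS replicate 1 and 0.122 without DSS replicate 2. Epithelial transcripts moved the same way: all 7 general epithelial markers and all 7 colonocyte markers fell, with a median log2 fold change of -1.47 and -1.96. The general epithelial markers summed to 60590 and 40520 in DSS and to 142200 and 148500 in water, and their part in the lower Hpgd was not tested.

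Within a library, Ptgs2 and Hpgd can be set side by side per kilobase of exon, with the caveat that the union of annotated exons stands in for the transcript in use. The level of Ptgs2 per kilobase was 0.0358 and 0.434 times that of Hpgd in DSS plus montmorillonite. It was 1.08 and 3.93 times that of Hpgd in DSS, and 0.0135 and 0.0246 times in water. In both DSS libraries the cyclooxygenase transcript was therefore above the dehydrogenase transcript, and in the other 4 libraries it was below. By group mean per kilobase, Hpgd was the highest of the 9 in water (1391 ± 280, SD, n = 2), with Pla2g4a next (78.0 ± 14.6) and Ptger2 last (4.996 ± 0.253). Between them stood Alox15 (42.6 ± 14.4), Ptges (37.5 ± 6.73), Ptger4 (33.3 ± 7.43), Ptgs2 (25.3 ± 5.60), Ptgis (23.2 ± 12.2) and Alox5ap (22.3 ± 4.73), and the ranges of neighbours in this order overlapped. In DSS the order by level per kilobase began with Ptgs2 (433 ± 229), Ptges (237 ± 158) and Hpgd (201 ± 69.5). Ptges overlapped with both of the others, while both Ptgs2 libraries were above both Hpgd libraries. In DSS plus montmorillonite Hpgd led (663 ± 425) and did not overlap with Ptges, the next (131 ± 129).

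The EP2 and EP4 receptors both raise cyclic AMP in response to prostaglandin E2. Ptger2 (EP2) had 11.5 and 49.1 normalised reads in DSS plus montmorillonite, 76.7 and 91.6 in DSS, and 26.9 and 25.0 in water. Both DSS libraries were above all others, and the DSS plus montmorillonite libraries lay on either side of water. The log2 fold change in DSS against water was 1.66 ± 0.35 (SE, n = 2 each, limma adjusted p = 0.0310). It was lost without any single library, with an adjusted p of 0.113 without DSS replicate 1, 0.184 without DSS replicate 2, 0.110 without water replicate 1 and 0.122 without water replicate 2. The counts behind it were small in water, 28 and 11 reads, and the pooled ratio of 3.15 had a 95% counting interval of 2.26 to 4.49. Ptger4 (EP4) had 105 and 256 normalised reads in DSS plus montmorillonite, 274 and 247 in DSS, and 256 and 187 in water. DSS and water overlapped, with a log2 difference of 0.25 and a 95% interval of -0.34 to 0.84 (adjusted p = 0.517). Ptger2 per kilobase was 0.140 and 0.245 times Ptger4 in DSS plus montmorillonite, 0.358 and 0.475 times in DSS, and 0.134 and 0.172 times in water. Ptger4 overlaps Ttc33 on the opposite strand, and all other members but Ptgs2 and Alox15 also overlap annotated genes. Whether counting used strand is not stated, so reads of such partners cannot be told apart.

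Alox5ap encodes FLAP, the membrane protein that presents arachidonic acid to 5-lipoxygenase. It had 34.5 and 303 normalised reads in DSS plus montmorillonite, 118 and 364 in DSS, and 26.9 and 36.4 in water. Both DSS libraries and replicate 2 of DSS plus montmorillonite were above water, while replicate 1 of DSS plus montmorillonite lay within the water range. The log2 fold change in DSS against water was 2.69 ± 0.56 (SE, limma adjusted p = 0.0295). It was 3.50 without DSS replicate 1 and 1.88 without DSS replicate 2. The adjusted p was 0.0752 without DSS replicate 1, 0.165 without DSS replicate 2, 0.119 without water replicate 1 and 0.0887 without water replicate 2. The neutrophil markers moved with it: all 7 rose in DSS against water, and their sums, 118 and 7264, 3270 and 7589, and 30.7 and 38.7, put the 6 libraries into nearly the same order. Their part in the Alox5ap result was not tested.

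Alox15, the mouse 12/15-lipoxygenase, had 7.19 and 3.63 normalised reads in DSS plus montmorillonite, 5.70 and 55.6 in DSS, and 79.7 and 130 in water. It was lowest in both DSS plus montmorillonite libraries and DSS replicate 1, and DSS replicate 2 lay between these and water. The reads behind these values were 5 and 2, 17 and 116, and 83 and 57. In DSS plus montmorillonite against water the log2 fold change was -4.06 ± 0.63 (SE), with a 95% interval of -5.64 to -2.48. Its unadjusted p of 0.000919 did not pass over all genes in limma (adjusted p = 0.406) or in edgeR (0.347), but did in DESeq2 on the recovered reads (0.000729). The pooled ratio was 0.0595 with a 95% counting interval of 0.0235 to 0.126. In DSS against water the log2 difference was -2.40 ± 0.98 (SE, limma adjusted p = 0.153), and it was -0.86 without DSS replicate 1 and -3.94 without DSS replicate 2. The spread within DSS was 9.77-fold, the widest of the 9 genes in any group.

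**Figure D2:**
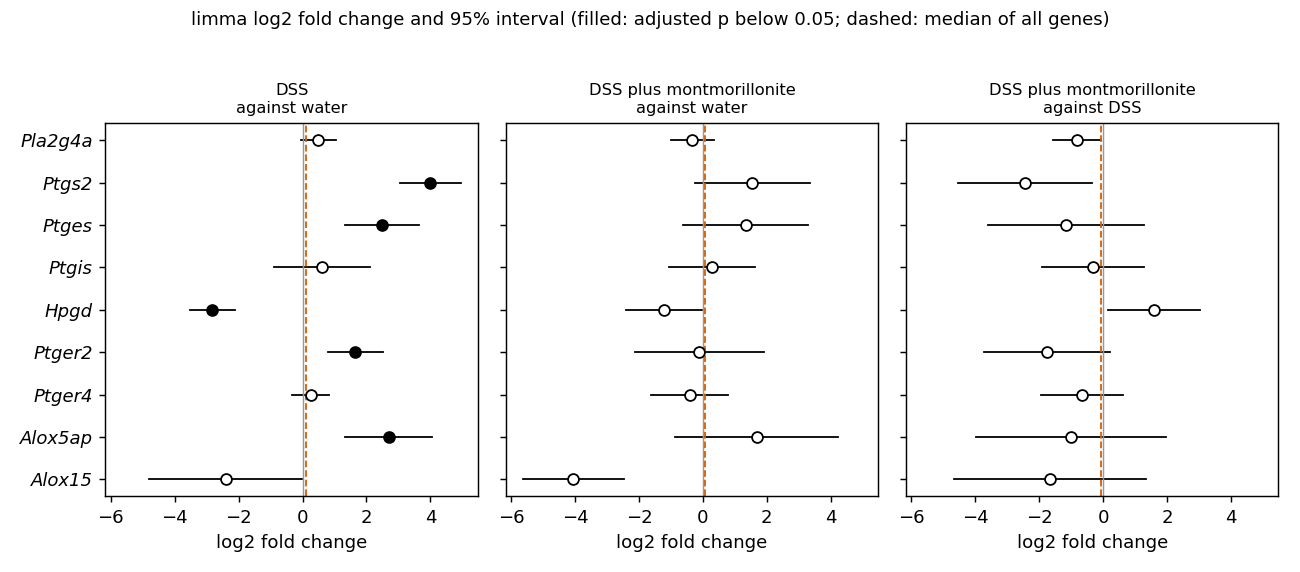
Log2 fold change (points) and 95% interval (lines) of the 9 genes in the limma fits of 4 libraries, 1 panel per comparison, with filled points where the adjusted p was below 0.05 and a dashed line at the median of all genes. The filled points are Ptgs2 (3.99), Ptges (2.49), Ptger2 (1.66), Alox5ap (2.69) and Hpgd (-2.82), all in DSS against water.

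The comparison of DSS plus montmorillonite with DSS asks whether the clay altered the response to DSS. None of the 9 genes passed, and the groups did not overlap for Ptgs2, Pla2g4a and Ptger2, which were lower in both DSS plus montmorillonite libraries, and for Hpgd, which was higher in both. Of all genes 40% did not overlap, 20.7% lower and 19.3% higher, so 4 of 9 is near the background. The log2 differences were -2.44 (95% interval -4.55 to -0.33) for Ptgs2, 1.60 (0.17 to 3.04) for Hpgd, -0.82 (-1.58 to -0.07) for Pla2g4a and -1.76 (-3.73 to 0.21) for Ptger2, with limma adjusted p values of 0.674, 0.674, 0.674 and 0.675. For Ptges (-1.15, -3.59 to 1.29) and Alox5ap (-1.002, -3.98 to 1.97) the intervals held 0 as well as changes larger than 4-fold, so the data do not show that they were alike. Without DSS plus montmorillonite replicate 2, Ptgs2 (-3.53, adjusted p = 0.0378), Hpgd (2.31, 0.0481) and Ptger2 (-2.76, 0.0482) passed, with 675 genes over all. That fit holds a single DSS plus montmorillonite library, which is assumed to vary like the others. Without replicate 1 of that group the differences of Ptges and Alox5ap turned positive, at 0.09 and 0.55.

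Against water, DSS plus montmorillonite gave log2 differences of 1.55 for Ptgs2 (95% interval -0.24 to 3.34, limma adjusted p = 0.642) and -1.22 for Hpgd (-2.42 to -0.02, adjusted p = 0.642). The groups did not overlap for Ptgs2, which was higher, and for Hpgd and Alox15, which were lower. Of all genes 41.6% did not overlap, 21.9% higher and 19.6% lower, so 3 of 9 is near the background. This comparison shares its water libraries with DSS against water and its DSS plus montmorillonite libraries with the one before it. Replicate 1 lay nearer the water mean than the DSS mean (log2) for 8 of the 9 genes, all but Alox15, beside 64.5% of all genes. Replicate 2 lay nearer the DSS mean for 8 of the 9, all but Pla2g4a, beside 13542 of 20307 genes over all. The other 33.3% of all genes lay nearer the water mean. Between the 2 libraries of this group the spread was 8.79-fold for Alox5ap, 5.57-fold for Ptges, 4.56-fold for Ptgs2, 4.26-fold for Ptger2 and 2.66-fold for Hpgd. The group mean therefore describes neither library for these genes.

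**Figure D3:**
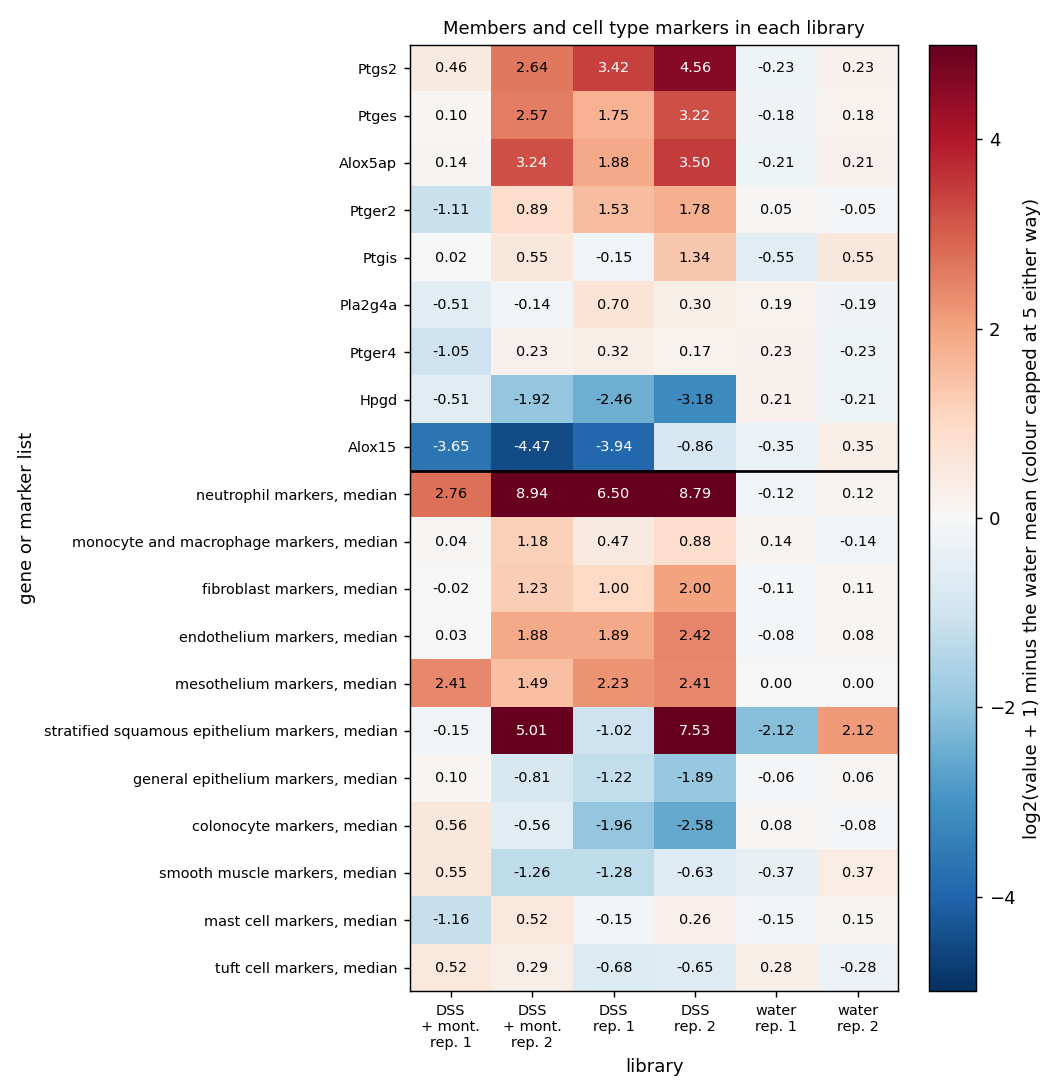
Log2(value + 1) minus the water mean for the 9 genes, and the median of the same over each cell type marker list, in each of the 6 libraries (columns), with colour capped at 5 either way. Replicate 1 of DSS plus montmorillonite is close to water for Ptgs2 (0.46) and Alox5ap (0.14), whereas replicate 2 (2.64 and 3.24) is nearer DSS, as is the median of its neutrophil markers (8.94).

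Other marker lists were read beside these genes, and their part in any of the results was not tested. Over all genes tested in DSS against water, limma called 7.95% higher and 7.28% lower. Fibroblasts and endothelium are known sources of Ptgs2 in tissues. In DSS against water 5 of 7 fibroblast markers rose, with sums of 36930 and 59650 in DSS and 11320 and 13420 in water. Of the endothelial markers 5 of 6 rose, with sums of 2624 and 4274 in DSS and 647 and 776 in water. Of the monocyte and macrophage markers 3 of 8 rose, with sums of 5086 and 5856 in DSS and 3497 and 3123 in water. The mast cell markers, of a cell known for prostaglandin D2 and leukotriene C4, had 0 of 9 passing in limma. Their median log2 fold change was -0.01. Their sums were 330 and 488 in DSS and 250 and 289 in water. Of these sums Kit alone gave 213 and 372 in DSS and 109 and 143 in water. Of the eosinophil markers with a row 2 of 4 rose (Il5ra and Prg2), with sums of 321 and 209 in DSS and 28.8 and 27.3 in water. Of these sums Il5ra alone gave 251 and 135 in DSS and 1.92 and 15.9 in water. Siglecf, with 8.04 and 4.79 in DSS and 18.2 and 4.55 in water, and Ccr3 did not pass. Of the red blood cell markers 3 of 5 rose (405 and 964 in DSS, 102 and 159 in water), and of the mesothelial markers 2 of 5 (228 and 259 in DSS, 8.64 and 4.55 in water). Of the markers of enteric neurons and glia 2 of 6 rose. Of the tuft cell markers 1 of 7 rose (Dclk1), while the median log2 fold change of that list was -0.68. In DSS 3 of these 7 lay below water without overlap, as did 28.5% of all genes. None of the 8 squamous or 6 smooth muscle markers passed in limma.

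The rest of the pathway was read from a list of 70 further genes, of which 64 had a row and 62 were tested in DSS against water. In limma 11 of these rose, 13 fell and 38 did not pass, 38.7% called where 15.2% of all genes were. Scaled by total reads, 15 rose and 8 fell. None of the 62 was called without DSS replicate 1 or without DSS replicate 2, and 2 were without water replicate 1 or 2 (Ggt5 and Fpr2 in both). DESeq2 called 17 higher and 15 lower, and edgeR 12 and 13. Counts by branch below are those of limma, and Abcc4 and Ltb4r1 are named because another tool called them, after their values were seen. The median log2 fold change of the 62 tested genes was 0.11, beside 0.10 for all genes. Among the other phospholipases A2, 2 of 18 rose and 5 fell. Pla2g7, the secreted enzyme that breaks down platelet-activating factor, rose to 647 and 846 in DSS, against 195 and 202 in water (log2 1.89, limma adjusted p = 0.00730). The secreted enzymes Pla2g10 (383 and 224 in DSS, 1310 and 1251 in water) and Pla2g3 (63.0 and 14.4 in DSS, 386 and 507 in water) fell, as did Pla2g16, at -1.87 (log2). The log2 fold change of Pla2g3 was -3.82, and it was -4.849 without DSS replicate 1 and -2.79 without DSS replicate 2. Pla2g2a had 100 and 66.2 in DSS and 22.1 and 31.8 in water and did not pass in limma (adjusted p = 0.0531), but did in edgeR (0.0424) and DESeq2 (0.0120). C57BL/6 mice are known to carry a defective Pla2g2a allele, so its transcript does not stand for the enzyme.

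In prostanoid synthesis the constitutive cyclooxygenase Ptgs1 had 371 and 539 normalised reads in DSS and 222 and 278 in water, a log2 difference of 0.85 with a 95% interval of 0.22 to 1.47 that did not pass in limma (adjusted p = 0.0784) but did in DESeq2 (0.0341) and in limma scaled by total reads (0.0412). That interval lies wholly below the one of Ptgs2, 3.03 to 4.95, though the difference between the genes was not tested. Of the 8 synthesis genes listed beside the members, Ptgs1 among them, none rose in limma and 2 fell, among them Cbr1, a carbonyl reductase that can act on prostaglandin E2 (502 and 332 in DSS, 1875 and 1979 in water, adjusted p = 0.00669). Hpgds, the haematopoietic prostaglandin D synthase (-0.62), and Tbxas1, the thromboxane synthase (0.05), did not pass in limma (adjusted p = 0.226 and 0.951). In catabolism and transport 1 of 5 further genes fell and none rose in limma, while DESeq2 also called Abcc4, an exporter of prostaglandins, higher (adjusted p = 0.0486). The prostaglandin transporter gene Slco2a1 had 786 and 1292 in DSS and 1435 and 1433 in water (adjusted p = 0.231).

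Of 6 other prostanoid receptor genes tested 2 rose and 1 fell. Of those that rose, Ptgdr had 50 reads over the DSS libraries and 0 over the shallower water libraries. Ptgir, the prostacyclin receptor, had 51.6 and 92.5 normalised reads in DSS and 4.80 and 11.4 in water (log2 3.05 ± 0.58 SE, limma adjusted p = 0.0244), although its ligand's synthase Ptgis did not pass. Ptger3, the EP3 receptor that lowers cyclic AMP, fell to 68.7 and 77.2 in DSS, against 176 and 171 in water (-1.24 ± 0.25 SE, adjusted p = 0.0285). Ptger2 and Ptger3, receptors for the same ligand with opposed coupling to cyclic AMP, thus passed in opposite directions. Ptger1 (EP1) had 28.8 and 28.8 in DSS and 31.7 and 2.27 in water, too wide a spread in water to show a change (adjusted p = 0.374).

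**Figure D4:**
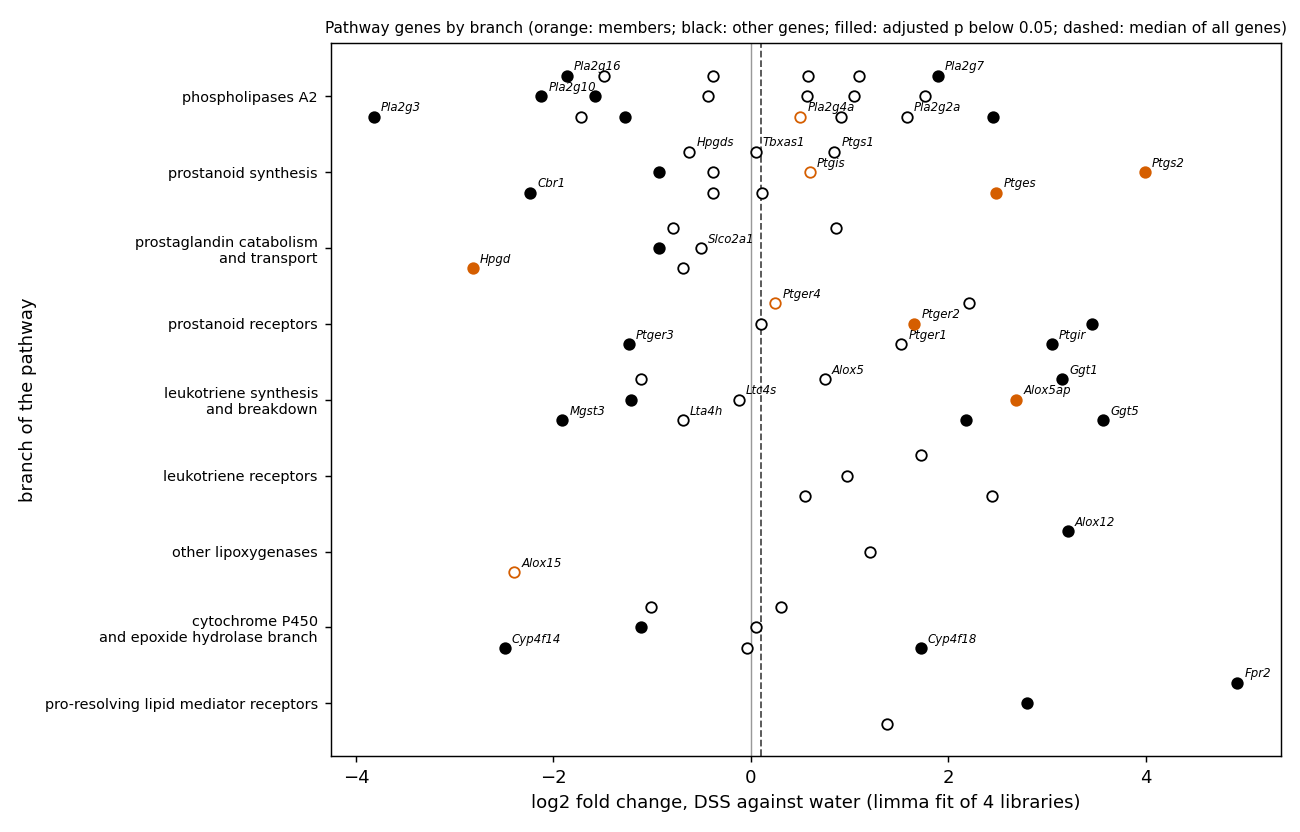
Log2 fold change in DSS against water of the 9 genes (orange) and 62 other pathway genes (black) by branch, each point a gene, filled where the limma adjusted p was below 0.05, with a dashed line at the median of all genes (0.10). The prostanoid synthesis row runs from Cbr1 (-2.24) to Ptgs2 (3.99), and Hpgd (-2.82) is the lowest of its row.

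In the leukotriene branch Alox5ap rose while its partner Alox5, the 5-lipoxygenase itself, had 17.4 and 55.6 normalised reads in DSS and 18.2 and 18.2 in water (limma adjusted p = 0.460). Lta4h, which makes leukotriene B4, had 737 and 581 in DSS and 1005 and 1110 in water (adjusted p = 0.0628, and 0.0387 in DESeq2), and Ltc4s, which makes leukotriene C4, had 10.1 and 21.1 in DSS and 12.5 and 20.5 in water (adjusted p = 0.907). Of 9 further genes of leukotriene synthesis and breakdown 3 rose and 2 fell. The gamma-glutamyltransferases Ggt5 (295 and 477 in DSS, 31.7 and 29.6 in water) and Ggt1 (51.6 and 130 in DSS, 7.68 and 9.10 in water), which trim leukotriene C4 to D4, rose with adjusted p values of 0.00542 and 0.0208. The log2 fold change of Ggt1 was 3.81 without DSS replicate 1 and 2.49 without DSS replicate 2. Mgst3, a microsomal glutathione transferase, fell by 1.91 (log2). None of 4 leukotriene receptor genes passed in limma, DESeq2 called Ltb4r1, a leukotriene B4 receptor, higher (adjusted p = 0.00858), and for all 4 the DSS libraries lay above the water libraries without overlap, as for 34% of all genes.

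Alox12, the platelet-type 12-lipoxygenase, had 64.0 and 153 normalised reads in DSS and 10.6 and 9.10 in water (log2 3.21 ± 0.53 SE, limma adjusted p = 0.0172; 3.83 without DSS replicate 1 and 2.59 without DSS replicate 2), while Alox15 had 5.70 and 55.6 in DSS and 79.7 and 130 in water. In the cytochrome P450 and epoxide hydrolase branch 1 of 7 genes rose, Cyp4f18, a leukotriene B4 hydroxylase in mouse neutrophils (1.72), and 2 fell, among them Cyp4f14 (-2.50). Of 3 receptors for pro-resolving lipids 2 rose, with Fpr2, a formyl peptide and lipoxin receptor, at 97.8 and 118 in DSS and 2.88 and 2.27 in water (log2 4.93 ± 0.47 SE, adjusted p = 0.00581). All of these calls too were made in the fit of the 4 DSS and water libraries, and the fit of all 6 called none.

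Among 9736 other protein-coding genes averaging 100 normalised reads or more, those most like Ptgs2 over the 6 libraries were Itgb1 (Pearson r = 0.999 of log2 values), Vwa1 (0.998) and Col5a3 (0.996). Those most like Hpgd were Uqcrfs1, Mgst3 and Gstm5 (each 0.997). As 395 genes reached an r of 0.95 with Ptgs2 and 532 with Hpgd, and the libraries share their group and marker differences, such likeness is common here and is given as a description.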

How the data were processed

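Each gene has a signal value per library in the authors' deposited table. The values behave as read counts over a library-specific factor: divided by the worth of 1 read, 100% came out whole (tolerance 0.01 read). Reads were mapped to mm10 (GRCm38), per the submitters' processing notes; the aligner, counter and normalization tool are not given in the sources used here. Symbols came from GENCODE M21, which held 20500 of 20533 identifiers when versions were ignored. All 6 columns were used.

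The test was limma 3.58.1 (R 4.3.3) with an intensity trend on log2(value + 1), two-sided, on the 4 libraries compared (2 residual degrees of freedom), over genes averaging 1 or more, with Benjamini-Hochberg adjustment over all genes. Folds are on that scale, which understates changes of low genes. As alternatives, recovered reads went through edgeR (4.0.16) and DESeq2 (1.42.0), which called 2983 and 4050 genes in DSS against water, and edgeR shared 2835 of its calls with limma. The limma script was tested on simulated data. With 2 against 2 the smallest p of an exact permutation test is 0.333, so none was run.

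Members, lists, tests and the choice of the 4-library fit were made with earlier results of these data known. The genes named by rule are all members, the 12 other pathway genes that passed with the lowest p, and the 3 genes most like Ptgs2 and Hpgd. A further 11 genes were listed whatever their result (Ptgs1, Hpgds, Tbxas1, Ptger1, Ptger3, Ptgir, Alox5, Lta4h, Ltc4s, Slco2a1, Pla2g2a). Outside the rule, Abcc4, Ltb4r1, Pla2g4f, Ptgdr, Ptgr1 and Ptgs2os were named after their values were seen, and Ttc33 because it overlaps a member. Some cell type markers are named too.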

Additional observations from a re-analysis of the deposited data

How the results depend on the processing

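With all 6 libraries in 1 fit, limma called 0 genes in DSS against water, against 3089 in the fit of 4, and 0 members against 5. Leaving out 1 library gave 0 to 416 genes and 0 to 2 members in that comparison. In DSS plus montmorillonite against DSS it gave 0 to 675 genes and 0 to 3 members, the highest without DSS plus montmorillonite replicate 2. Each such fit leaves a group with 1 library, assumed to vary like the others. DESeq2 called 200 genes and 1 member, Alox15, in DSS plus montmorillonite against water, and 76 genes in DSS plus montmorillonite against DSS, where limma and edgeR called 0. In DSS against water edgeR, DESeq2, both other scalings, both other pseudocounts and both other filters called the same number of members, 5. Scaling by total reads put the all-gene median (log2) at 0.33 in DSS against water and to -0.32 in DSS plus montmorillonite against DSS, from 0.10 and -0.07, and turned no member's sign.

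The 62 other pathway genes were put through the same alternatives after the data were seen. Of these 24 were called in DSS against water, 0 with all 6 libraries in 1 fit and 0 to 2 with 1 library left out. DESeq2 called 3 (Ggt1, Ggt5 and Fpr2) in DSS plus montmorillonite against water, and in DSS plus montmorillonite against DSS leaving out 1 library gave 0 to 6.

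The shared replicate numbers gave correlations of deviations of 0.197, 0.160 and 0.409 between groups, but nothing says that they pair mice. With the replicate block limma called 5139 genes in DSS against water, Alox15 among them (adjusted p = 0.00590), and no other call on a member changed. Of the other pathway genes the block called 35, against 24 without it, with Ptgs1 (adjusted p = 0.00983), Pla2g2a (0.0179), Lta4h (0.0200) and Ltb4r1 (0.01001) among those that turned.

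Signs turned only where no call was made. With 1 library left out, Ptgis ranged over -0.15 to 1.34 in DSS against water, -0.27 to 0.84 in DSS plus montmorillonite against water, and -1.06 to 0.43 in DSS plus montmorillonite against DSS. In DSS plus montmorillonite against water Ptger2 was at 0.17 by edgeR, 0.21 by DESeq2 and between -1.11 and 0.89 with 1 library left out, and Ptger4 between -1.05 and 0.23. In DSS plus montmorillonite against DSS Ptges lay between -2.39 and 0.085 and Alox5ap between -2.55 and 0.55 with 1 library left out. Of the pathway genes named, in DSS against water, Tbxas1 was at -0.047 by edgeR, -0.076 by DESeq2 and -0.48 to 0.58 with 1 library left out. Ptger1 ranged over -0.13 to 3.19, Alox5 over -0.061 to 1.56 and Ltc4s over -0.62 to 0.38 with 1 library left out, and Ltc4s was at 0.10 scaled by total reads. The cause was not tested. Depth limits Alox15 and Ptger2 most, with 2 and 8 reads in their lowest libraries.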

Other observations

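The genes in this section were chosen after their values were seen. Pla2g4f, a cytosolic phospholipase A2, had 938 and 996 normalised reads in DSS plus montmorillonite, 446 and 436 in DSS, and 542 and 610 in water. It was highest in both DSS plus montmorillonite libraries, and these differed from each other by less than from any other library, unlike the members described above. The log2 difference was 1.13 ± 0.23 against DSS and 0.75 ± 0.20 against water (SE, n = 2 each, limma adjusted p = 0.674 and 0.642). Ptgr1, which acts on 15-keto-prostaglandins after Hpgd, had 135 and 81.8 in DSS plus montmorillonite, 207 and 136 in DSS, and 299 and 246 in water. Its log2 difference in DSS plus montmorillonite against water was -1.36 ± 0.35 (limma adjusted p = 0.642).

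Ptgs2os, an RNA gene on the minus strand whose own start lies just before that of Ptgs2, head to head with it (chr1:150074873-150099963), had 1 and 4 reads in DSS plus montmorillonite, 18 and 36 in DSS, and 2 and 0 in water. Its normalised read counts were 1.44 and 7.27, 6.03 and 17.3, and 1.92 and 0, too few for a comparison by single libraries.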
